A study of Mus musculus with 50 samples.

Results

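Ccl8, Ccl2, Ccl7 and Ccl12, which encode the monocyte chemoattractant protein (MCP) chemokines of the mouse, and their neighbour Ccl11, which encodes eotaxin, were described across 5 lymph nodes and 2 diets. The 5 genes were taken by symbol from the deposited count table, where they are 5 of 56600 gene entries. They were chosen by the level of Ccl8, seen earlier to be high in the inguinal nodes of these same libraries, so levels in inguinal against gut-draining nodes are given below as a description, with no test. All 5 passed the filter on low counts, after which 18387 genes were tested.

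The nodes drained the duodenum, jejunum, ileum or colon, or were inguinal nodes, which drain skin, and they were taken from mice at postnatal day 56. The mice were born to C57BL/6J dams fed a diet lacking vitamin A (deficient) or the matched diet with vitamin A restored to 20 IU/g (sufficient), starting 3 weeks ahead of mating. Each combination of node and diet held 5 libraries. The deficient mice were all female, and among sufficient libraries numbers 1 and 2 were female and numbers 3, 4 and 5 male in every node. No litter held both diets, so dam, litter and diet cannot be told apart. Nothing in the labels ties nodes to a mouse or states that the libraries of a group are from separate mice, and the p-values reflect spread among libraries, which may be technical. Whole nodes were sequenced, and fewer cells of a type and less RNA per cell cannot be told apart.

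Chemokines are small secreted proteins that bind receptors on leukocytes and direct where those cells move. The MCP group is best known for drawing monocytes out of bone marrow and into inflamed tissue through the receptor CCR2, which Ccl2, Ccl7 and Ccl12 engage, whereas eotaxin draws eosinophils through CCR3. Mouse Ccl8 differs from the rest of the group in acting on CCR8, a receptor of type 2 helper and regulatory T cells, and is known from skin. Vitamin A is the source of retinoic acid, a ligand of nuclear receptors that has wide effects on immune cells of the gut.

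The genes lie side by side on the forward strand of chromosome 11 (GENCODE M21, GRCm38), in the order Ccl2, Ccl7, Ccl11, Ccl12 and Ccl8, within 81.2 kb. Ccl2 (ENSMUSG00000035385) spans 82035571 to 82037453 and Ccl8 (ENSMUSG00000009185) spans 82115185 to 82116799. Ccl7 (ENSMUSG00000035373) starts at 82045712, Ccl11 (ENSMUSG00000020676) at 82057823 and Ccl12 (ENSMUSG00000035352) at 82101845. Each has up to 3 exons. Coding sequences of Ccl8 and Ccl12 were identical at 66.7% of 321 aligned positions, and no other pair exceeded the 67.9% of Ccl7 and Ccl11. Despite that likeness, no stretch of 31 bases in the transcripts of Ccl8, Ccl2, Ccl7 or Ccl12 occurs in a transcript of another gene, and for Ccl11 only 1 of 1052 does. A counter that matches words of that length can tell these paralogs apart.

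Of the 5 members, only Ccl8 and Ccl12, which are neighbours with 11.8 kb between them, had a promoter sequence at hand. The 250 bases before the start of each are shown. They come from the RefSeq promoter table for GRCm38.p6, which held 2 of the 5 members, and lie at chr11:82114935-82115184 for Ccl8 and chr11:82101595-82101844 for Ccl12, on the forward strand. Capitals mark 3 blocks of 8 bases that both share at nearly the same distance from the start. Whether Ccl2, Ccl7 or Ccl11 hold such blocks, and how often they arise by chance, was not tested.
Ccl8: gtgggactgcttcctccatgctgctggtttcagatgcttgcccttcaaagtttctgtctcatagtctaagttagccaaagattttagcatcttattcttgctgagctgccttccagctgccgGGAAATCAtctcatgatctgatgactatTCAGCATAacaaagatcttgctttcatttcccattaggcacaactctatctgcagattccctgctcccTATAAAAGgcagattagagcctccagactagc
Ccl12: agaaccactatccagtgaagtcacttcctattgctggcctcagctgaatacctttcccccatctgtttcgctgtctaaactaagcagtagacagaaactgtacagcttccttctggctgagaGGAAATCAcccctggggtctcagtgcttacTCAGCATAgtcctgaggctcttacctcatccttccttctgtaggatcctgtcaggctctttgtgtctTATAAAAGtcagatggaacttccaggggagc
The windows were identical at 56.9% of 283 aligned positions. The block GGAAATCA begins 128 bases before the start in both, TCAGCATA begins 100 bases before Ccl8 and 98 before Ccl12, and TATAAAAG begins 32 and 31 bases before. The last block holds the TATA box letters TATAAA, which occur on either strand in 12.4% of 32851 promoter windows of that length. Letters for NF-kB (GGG, any 5 bases, CC, in 45.8% of windows), the interferon-gamma element GAS (TTCNNNGAA, 7.0%), the interferon-stimulated element ISRE (GAAA, any 2 bases, GAAA, 3.0%), AP-1 (TGANTCA, 6.7%) and the nuclear receptor hexamer AGGTCA (14.0%) were searched on both strands and were not in either window. A match or its absence describes letters only.

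Library totals ran from 5335369 to 8904722 estimated counts, with a median of 7640371, and levels below are normalised CPM, the read count scaled to a common library total. The T cell transcript Cd3e, expected of a lymph node, was present in every library (mean of 118 CPM). Genes of a skin and mammary epithelium list varied. The keratin genes Krt5 and Krt15 were at 0 in 45 and 47 of the 50 libraries and Krt14 in 25. Krt18 was at 0 in 0 libraries and reached 46.8 CPM, so epithelial transcripts were not absent. A class of 10 deficient libraries (3 inguinal, 3 colonic, 2 ileal, 1 duodenal and 1 jejunal) held 1.03% to 1.7% of counts in the pseudogene Gm19220, against 5.37% to 9.83% elsewhere. In 2 duodenal libraries, sufficient 5 and deficient 4, transcripts of a pancreas marker list made up 17.28% and 15.56% of counts. Diet differences of the 5 genes and of Ccr8, Ccr2, Ccr1 and Ly6c2 were refitted without them, as were some other contrasts of the 5 genes. Calls of the 5 genes lost in this way are given. Other results below were not refitted, and whether they depend on these libraries was not tested. Without the class low in Gm19220, genes passing between diets went from 409 to 132 in colonic and from 154 to 35 in inguinal nodes.

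Ccl8 was highest in inguinal nodes on either diet. On the sufficient diet its inguinal level was 16.8, 27.8, 51.5, 53.0 and 73.8 CPM in libraries 1 to 5, and on the deficient diet 34.7, 47.8, 49.3, 59.1 and 36.6 CPM. Every inguinal library lay above every gut-draining library, the highest of which was sufficient colonic library 1 at 13.3 CPM. The fitted difference, gut-draining minus inguinal, was -4.50 ± 0.24 (log2 ± SE), or 22.6-fold, on the sufficient diet and -3.24 ± 0.22, or 9.45-fold, on the deficient diet. In that contrast 16.9% and 5.71% of all genes tested passed the threshold of adjusted p 0.05, from which nothing is read here about Ccl8, because this contrast chose it.

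Within each diet the next mean level of Ccl8 was in colonic nodes and the lowest levels were in small intestinal nodes. Across diets, deficient ileal nodes (mean 6.28 CPM) lay close to sufficient colonic nodes (6.00 CPM). Sufficient colonic libraries held 13.3, 2.27, 4.38, 4.13 and 5.90 CPM and deficient colonic libraries 10.01, 9.14, 8.32, 9.03 and 8.71 CPM. The deficient colonic libraries were tightly grouped, and the sufficient ones lay around them, with library 1 above and the other 4 below. Sufficient duodenal libraries held 0.691, 0.467, 1.41, 1.45 and 0.675 CPM, jejunal libraries 1.63, 1.26, 0.605, 2.08 and 1.64 CPM, and ileal libraries 1.04, 1.13, 1.65, 0.732 and 2.33 CPM. These small intestinal values overlapped one another and rest on 3 to 20 counts per library. In the order of group means, from 45.5 ± 10.01 CPM (SD, n = 5) in deficient inguinal nodes to 0.939 ± 0.458 CPM in sufficient duodenal nodes, neighbouring groups overlapped at every step except between the inguinal and the deficient colonic nodes.

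Within the gut, Ccl8 was lower in small intestinal than in colonic nodes on both diets. The mean of duodenal, jejunal and ileal nodes minus colonic nodes was -2.33 ± 0.31 on the sufficient diet (edgeR quasi-likelihood test, Benjamini-Hochberg adjusted p = 1.99e-06) and -1.22 ± 0.27 on the deficient diet (adjusted p = 0.00554). Ccl12 had the same direction, at -1.64 ± 0.32 on the sufficient diet (adjusted p = 0.000597) and -0.91 ± 0.26 on the deficient diet, which missed the threshold (edgeR adjusted p = 0.0632). So 2 of 5 members passed on the sufficient diet, where 3.83% of all genes did, and 1 of 5 on the deficient diet, where 1.77% did. The sufficient difference in Ccl8 was -1.65 without the libraries numbered 1, which include the colonic library at 13.3 CPM, and still passed. The deficient difference in Ccl8 lost the call without deficient libraries 1 (-1.12, adjusted p = 0.0675) or 2 (-1.15, adjusted p = 0.0706), and without the low-Gm19220 libraries (-1.29, adjusted p = 0.324).

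**Figure D1:**
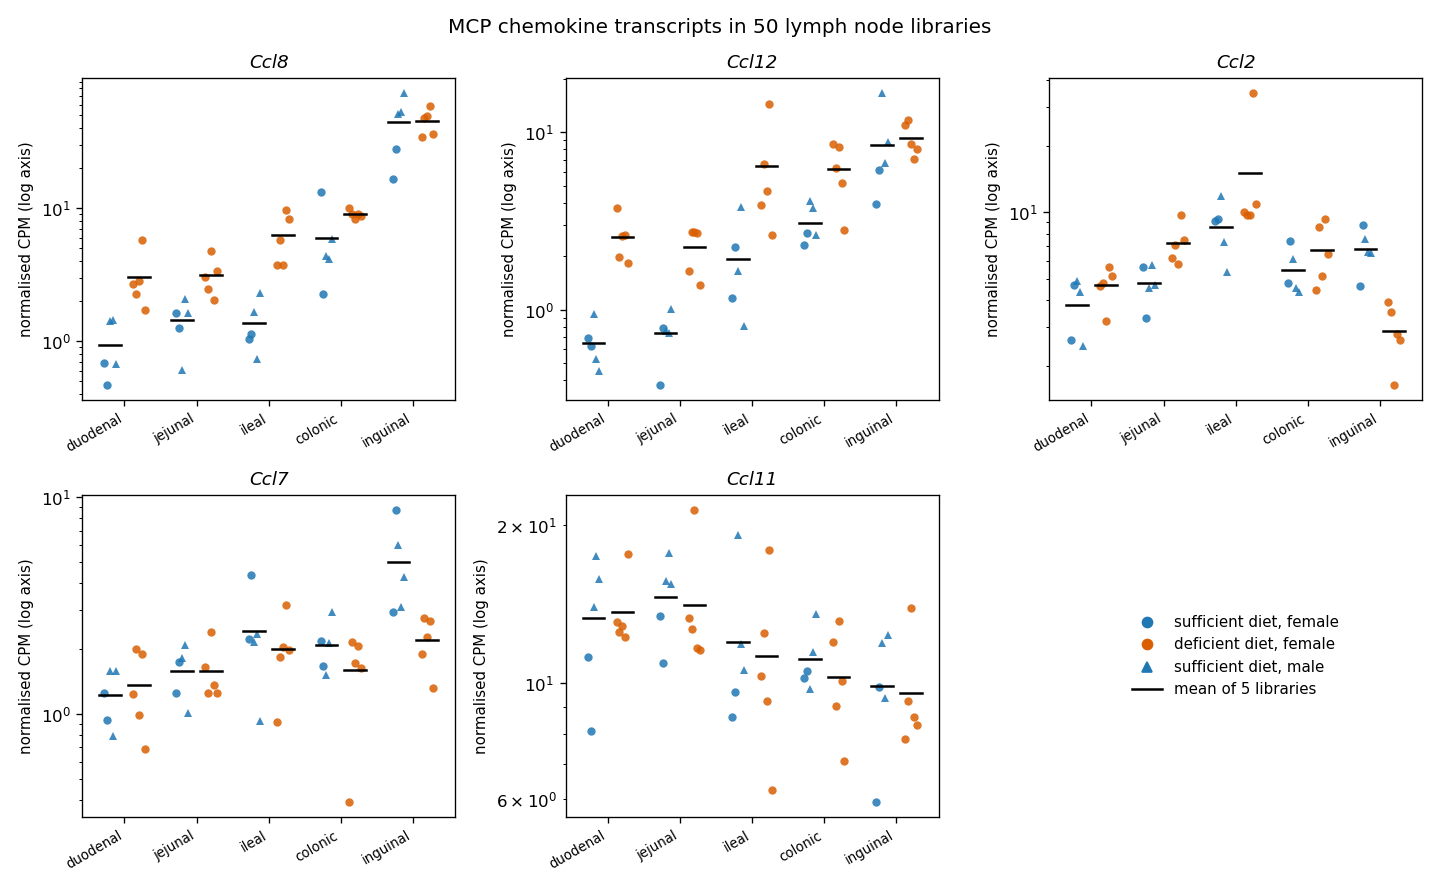
Normalised CPM (log axes, scaled per gene) of the 5 genes in each of 50 libraries, by node and diet; circles are females, triangles males, and bars the mean of 5 libraries. Ccl8 sits between 16.8 and 73.8 CPM in inguinal nodes and at or below 13.3 CPM elsewhere, and Ccl2 in inguinal nodes is lower on the deficient diet.

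Compared per kilobase of transcript, which allows levels of different genes to be set side by side, Ccl8 averaged 87.2 CPM per kb in sufficient inguinal nodes, ahead of Ccl12 (15.7), Ccl11 (9.13), Ccl7 (6.27) and Ccl2 (6.22). In sufficient duodenal nodes the order was different, with Ccl11 first at 12.3 CPM per kb and Ccl2 at 3.46, while Ccl8 (1.84), Ccl7 (1.53) and Ccl12 (1.20) were low. In deficient ileal nodes Ccl2 (13.7), Ccl8 (12.3), Ccl12 (11.98) and Ccl11 (10.4) were close together and Ccl7 stood at 2.48 CPM per kb. The inguinal node was the node in which Ccl8 led the 5 genes by the widest margin in this scale.

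On the deficient diet Ccl8 rose in duodenal and ileal nodes. Counting all members and either direction, 2 of 5 passed the threshold between diets in duodenal nodes (10.1% of all genes tested), 1 in jejunal (4.55%), 2 in ileal (5.70%), 1 in colonic (2.22%) and 1 in inguinal nodes (0.838%). Deficient duodenal libraries held 2.70, 2.26, 2.84, 5.83 and 1.72 CPM and deficient ileal libraries 3.78, 5.82, 3.72, 9.78 and 8.32 CPM. In both nodes every deficient library exceeded every sufficient library. The log2 difference, deficient over sufficient and adjusted for sex, was 1.88 ± 0.51 in duodenal nodes, or 3.69-fold (edgeR adjusted p = 0.0109), and 2.43 ± 0.44 in ileal nodes, or 5.40-fold (adjusted p = 0.00023). The ileal call held in 22 of 23 alternatives, the exception being a fit of the ileal libraries alone. The duodenal call was lost without the libraries with high pancreas transcripts (1.48, adjusted p = 0.0776), without the sufficient libraries numbered 2 (1.52, adjusted p = 0.106) and in a fit of duodenal libraries alone (2.33, adjusted p = 0.0749).

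In the other nodes the diet difference of Ccl8 did not pass the test. Deficient jejunal libraries held 3.06, 2.49, 4.76, 2.03 and 3.38 CPM, of which 4 lay above all sufficient ones, and the difference was 1.37 ± 0.46 (edgeR adjusted p = 0.0782). It was 0.78 ± 0.36 in colonic nodes (adjusted p = 0.317) and 0.36 ± 0.36 in inguinal nodes (adjusted p = 0.762). Without the sufficient libraries numbered 1 in all 5 nodes, which hold 1 of the 2 sufficient females per node, the jejunal difference was 1.86 (adjusted p = 0.00849) and the colonic difference 1.84 (adjusted p = 0.00547). The jejunal difference also passed with DESeq2 (1.35, adjusted p = 0.0414) and the colonic one with limma-voom (1.46, adjusted p = 0.0263), while in females only they were 1.10 (adjusted p = 0.368) and 0.15 (adjusted p = 0.955). The inguinal levels of the diets overlapped, with means of 44.6 ± 22.5 and 45.5 ± 10.01 CPM (SD, n = 5).

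Ccl12, a CCR2 ligand of mice, rose on the deficient diet in all 4 gut-draining nodes. Its sufficient levels in libraries 1 to 5 were 0.691, 0.623, 0.940, 0.528 and 0.450 CPM in duodenal nodes and 0.375, 0.789, 0.757, 0.743 and 1.01 CPM in jejunal nodes, from 2 to 8 counts per library. The deficient levels were 3.72, 1.99, 2.60, 2.63 and 1.84 CPM in duodenal and 1.65, 2.74, 2.74, 2.71 and 1.38 CPM in jejunal nodes. No deficient library overlapped a sufficient one in either node. The differences were 2.29 ± 0.47 in duodenal nodes, or 4.88-fold (edgeR adjusted p = 0.000885), and 1.96 ± 0.46 in jejunal nodes, or 3.90-fold (edgeR adjusted p = 0.00708). The duodenal call was lost in 2 of 23 alternatives, the fits of females only and of duodenal libraries only. The jejunal call was lost without the sufficient libraries numbered 1 (1.65, adjusted p = 0.0829), with limma-voom and in fits of females only or jejunal libraries only.

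In ileal nodes Ccl12 stood at 1.17, 2.26, 1.65, 3.81 and 0.814 CPM on the sufficient and 3.90, 6.62, 4.69, 14.3 and 2.63 CPM on the deficient diet. In this node 4 of 5 deficient libraries exceeded all sufficient ones. The difference was 2.08 ± 0.40, or 4.23-fold (edgeR adjusted p = 0.000442), and 1.56 (adjusted p = 0.00596) without deficient ileal library 4, which had the highest level. The ileal call was lost in 2 of 23 alternatives, the fits of females only and of ileal libraries only. Colonic levels were 2.31, 2.69, 4.11, 3.73 and 2.64 CPM against 8.58, 6.32, 8.22, 5.16 and 2.80 CPM. Again 4 of 5 deficient libraries lay above all sufficient ones, and the difference of 1.38 ± 0.39 was close to the threshold (edgeR adjusted p = 0.0449). It was lost in 14 of 23 alternatives, with differences of 1.00 to 1.63 and adjusted p as high as 0.353. In inguinal nodes the levels overlapped, at means of 8.45 ± 4.89 and 9.25 ± 1.95 CPM (SD, n = 5), and the difference of 0.54 ± 0.37 did not pass (edgeR adjusted p = 0.602). Gut-draining minus inguinal nodes gave -2.63 ± 0.26 for Ccl12 on the sufficient and -1.25 ± 0.24 on the deficient diet, as a description.

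Ccl2, the founding CCR2 ligand of the group, fell on the deficient diet in inguinal nodes, the opposite direction to Ccl8 and Ccl12 in the gut. Sufficient inguinal libraries held 4.65, 8.72, 7.55, 6.61 and 6.56 CPM and deficient ones 3.90, 3.54, 1.64, 2.80 and 2.62 CPM, so that the groups did not overlap. The difference was -1.25 ± 0.32, or 2.38-fold (edgeR adjusted p = 0.0428), which was lost in 14 of 23 alternatives while staying between -1.48 and -0.98. Of the low-Gm19220 libraries, 3 were deficient inguinal, and without that class the difference was -1.05 (adjusted p = 0.457). In gut-draining nodes none of the diet differences of Ccl2 passed by edgeR's test, at 0.26 ± 0.33 in duodenal (adjusted p = 0.677), 0.58 ± 0.31 in jejunal (0.348), 0.79 ± 0.30 in ileal (0.118) and 0.31 ± 0.31 in colonic nodes (0.748). The ileal difference was 0.22 (adjusted p = 0.73) without deficient ileal library 4, which held 34.8 CPM against 9.71 to 10.9 CPM in the rest of its group, and 0.93 (0.048) with a term for the low-Gm19220 libraries. In jejunal nodes, though, the deficient libraries, at 6.23, 7.09, 5.84, 9.74 and 7.51 CPM, all lay just above the sufficient ones, at 5.63, 3.31, 4.54, 5.80 and 4.67 CPM.

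The diet effect on Ccl2 differed between gut-draining and inguinal nodes when that difference was itself tested. The mean diet effect over the 4 gut-draining nodes minus that in inguinal nodes was 1.73 ± 0.33 (edgeR interaction, adjusted p = 0.00313), where 0.919% of all genes passed and 1 of 5 members did. It was 1.66 (adjusted p = 0.212) without the low-Gm19220 libraries and 1.68 (adjusted p = 0.14) in females only. For Ccl8 it was 1.26 ± 0.37 (edgeR adjusted p = 0.0854), for Ccl12 1.38 ± 0.38 (0.0631) and for Ccl7 1.06 ± 0.39 (0.228). The values for Ccl8 and Ccl12 lay near the threshold and passed it in some alternatives. Without the sufficient libraries numbered 1 the Ccl8 value was 1.62 (adjusted p = 0.00342), and in females only it was 0.49 (0.783). For Ccl12 it was 1.40 with DESeq2 (adjusted p = 0.0405), 1.49 without the deficient libraries numbered 5 (0.0406) and 0.90 in females only (0.582). As levels, Ccl2 in gut-draining against inguinal nodes went from 5.66 against 6.82 CPM on the sufficient diet to 8.45 against 2.90 CPM on the deficient diet.

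**Figure D2:**
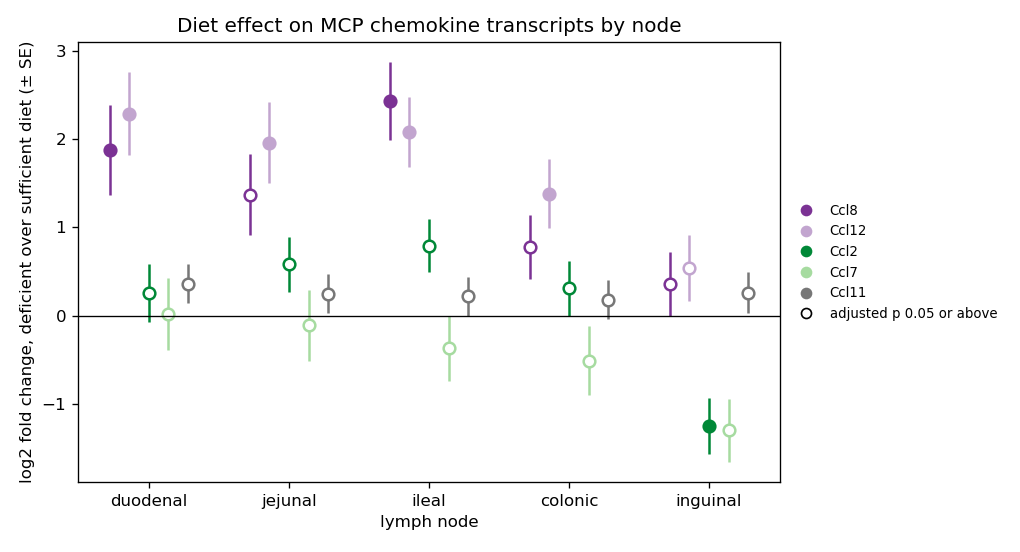
Log2 fold change (deficient over sufficient diet, ± SE, sex-adjusted edgeR fit) of each gene in each node; filled points passed an adjusted p of 0.05. Ccl8 and Ccl12 lie above 0 in the gut-draining nodes and reach 2.43 and 2.29, whereas Ccl2 and Ccl7 lie at -1.25 and -1.30 in inguinal nodes.

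Along the small intestine, Ccl2 and Ccl12 were lower in duodenal than in ileal nodes. For Ccl2 the difference was -1.16 ± 0.30 on the sufficient diet (edgeR adjusted p = 0.00871) and -1.68 ± 0.29 on the deficient diet (edgeR adjusted p = 8.23e-05). Deficient ileal libraries held 10.1, 9.71, 9.73, 34.8 and 10.9 CPM of Ccl2 and deficient duodenal libraries 4.62, 4.78, 3.21, 5.64 and 5.17 CPM, which did not overlap. Library 4 stood far above the rest of its group, and without it the deficient difference was -1.13 and still passed (adjusted p = 0.00163). The sufficient difference of Ccl2 missed the threshold without the libraries numbered 1 (-1.03, adjusted p = 0.0622). For Ccl12 the difference was -1.52 ± 0.46 on the sufficient diet (edgeR adjusted p = 0.0296) and -1.31 ± 0.35 on the deficient diet (edgeR adjusted p = 0.0134). Neither call was stable. The sufficient difference was -1.08 (adjusted p = 0.311) without the sufficient libraries numbered 4 in all nodes and -1.41 (0.117) without those numbered 2. The deficient difference was -1.24 (adjusted p = 0.0834) without the deficient libraries numbered 2 and -0.81 (0.184) without the single deficient ileal library 4. Both calls were also lost with limma-voom and in fits of only the groups compared. Of the 5 members 2 passed on each diet, where 8.07% and 5.60% of all genes did.

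Ccl7, a ligand of CCR1, CCR2 and CCR3, averaged between 1.22 and 2.40 CPM in every gut-draining group and did not pass the diet test in any node. Its inguinal levels did not overlap between diets, at 2.96, 8.72, 6.04, 3.12 and 4.26 CPM on the sufficient and 1.89, 2.78, 2.27, 2.69 and 1.31 CPM on the deficient diet. That was the pattern of Ccl2 in the same nodes, but the difference of -1.30 ± 0.36 missed the threshold (edgeR adjusted p = 0.0757). With DESeq2 it passed (-1.32, adjusted p = 0.0338). In gut-draining nodes the diet differences of Ccl7 lay between -0.51 and 0.02, with edgeR adjusted p of 0.631 or more. Gut-draining minus inguinal nodes gave -1.50 ± 0.25 on the sufficient diet and -0.44 ± 0.27 on the deficient diet, as a description.

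Ccl11, whose product draws eosinophils, was the most even of the 5 genes across groups, with group means from 9.56 to 14.6 CPM. Diet differences lay between 0.18 ± 0.22 in colonic and 0.36 ± 0.22 in duodenal nodes, and the smallest edgeR adjusted p was 0.334. These differences are adjusted for sex. On the sufficient diet the 3 males exceeded the 2 females in duodenal (13.9, 17.4 and 15.8 against 11.2 and 8.09 CPM), jejunal (15.6, 17.7 and 15.4 against 13.4 and 10.9 CPM) and ileal nodes (19.1, 11.9 and 10.6 against 8.59 and 9.59 CPM). These values overlapped in colonic and inguinal nodes.

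Males and females also differed in their levels of inguinal Ccl8 and Ccl12 on the sufficient diet. The 3 males averaged 59.4 CPM of Ccl8 and the 2 females 22.3 CPM, with no overlap, and Ccl12 averaged 10.7 and 5.02 CPM, again with no overlap. In gut-draining nodes the sexes overlapped for both genes. The 5 deficient inguinal libraries, all female, averaged 45.5 CPM of Ccl8, and each was above both sufficient females. In a fit of females only, the inguinal diet difference of Ccl8 was 1.03 (edgeR adjusted p = 0.306), against 0.36 in the fit with both sexes. The female-only fit has 2 sufficient libraries per node, and the sex differences were not tested.

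Ccl8 and Ccl12 varied together across nodes and diets, which is seen when one is plotted against the other. Over the 50 libraries the Pearson correlation of their log2 levels was 0.82, and it was 0.09 after the mean of each node and diet was subtracted. The shared variation lay between groups, among them the inguinal groups whose Ccl8 level chose the genes. The low value within groups rests partly on libraries with as few as 3 counts of Ccl8 and 2 of Ccl12. Whether the 2 genes are unrelated within groups cannot be told from it. Of the other pairs, Ccl12 with Ccl11 had the highest correlation within groups (0.47), followed by Ccl8 with Ccl11 and Ccl2 with Ccl7 (0.34 each). These correlations share libraries and depth and are given without a test.

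**Figure D3:**
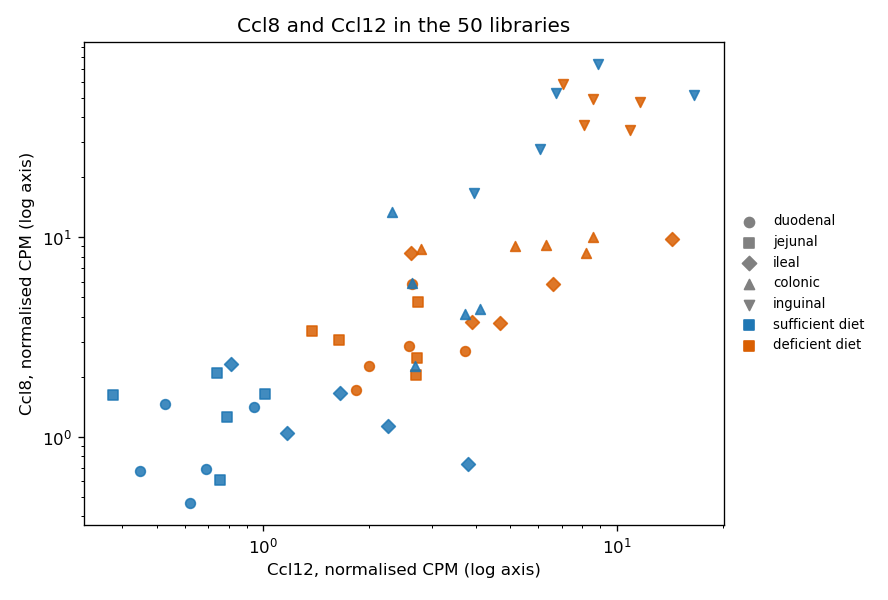
Ccl8 against Ccl12 in each of 50 libraries, in normalised CPM on log axes, with the node as marker shape and the diet as colour. Most sufficient small intestinal libraries sit at the lower left, most deficient gut-draining libraries further up and to the right, and inguinal libraries of both diets at the top, from 16.8 to 73.8 CPM of Ccl8.

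The genes most like Ccl8 over the 50 libraries, among 16665 with a mean of at least 1 CPM, were Lipg (r = 0.89), Timd4 (0.88), Clec4a3 (0.86), Lyz1 (0.86), Gzmc (0.86), Cd209d (0.84), Cd300ld4 (0.84) and Ccr2 (0.84). Lipg encodes endothelial lipase, Timd4 a phosphatidylserine receptor of macrophages, Clec4a3 and Cd209d lectins of myeloid cells and Lyz1 a lysozyme. With group means subtracted, the leading genes were Ebf1 and Ppa1 at 0.59, Blvrb at 0.57, Gm45105 at 0.56, Rbp7, Gm45495 and Cryba4 at 0.55 and Adissp at 0.54. No gene appeared in both lists.

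For the other members the nearest genes were taken within groups only. Ccl12 was closest to Parp10 and Serpina3g (0.71 each), Stc1 (0.68), Ifi47 (0.66) and Rilpl1 (0.65), of which Parp10 and Ifi47 are known as interferon-induced. Ccl11 was closest to Acadl (0.80), Adh1 and Dcn (0.79 each), Tns2 (0.78) and Capns1 (0.77), and Dcn encodes decorin, a matrix protein of fibroblasts. Ccl2 was nearest to Fgf23 (0.64), Gm20559, Ccnd1 and Gdf15 (0.60 each) and Tor1aip2 (0.59), and Ccl7 to Tceal8 (0.62), Gm10388 (0.54), and Mfsd11, Gm47547 and Trmt61b (0.53 each). The values for Ccl7 and Ccl2 were the lower ones.

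Among the receptors, Ccr8, through which mouse Ccl8 acts, rose on the deficient diet in all 3 small intestinal nodes. In ileal nodes it stood at 1.04, 1.13, 1.32, 0.732 and 1.28 CPM on the sufficient and 6.19, 4.23, 3.48, 3.86 and 4.16 CPM on the deficient diet, with no overlap. The differences were 1.51 ± 0.26 in duodenal (edgeR adjusted p = 6.2e-05), 1.54 ± 0.27 in jejunal (0.000142) and 1.97 ± 0.28 in ileal nodes (4.97e-06). In colonic and inguinal nodes Ccr8 differed by 0.72 ± 0.27 (edgeR adjusted p = 0.166) and 0.70 ± 0.25 (0.208), and deficient inguinal libraries (5.80 to 8.55 CPM) lay just above the sufficient ones (3.18 to 5.78 CPM). The ileal call held in all 23 alternatives, and the duodenal and jejunal calls were lost in 1 each, the fit of the node's own libraries. So Ccr8 rose in both nodes where Ccl8 rose and in the jejunal node, where Ccl8 had not passed.

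Ccr2, the receptor of Ccl2, Ccl7 and Ccl12 on monocytes, rose on the deficient diet in duodenal (0.66 ± 0.16, edgeR adjusted p = 0.00478), ileal (0.91 ± 0.16, 0.000133) and colonic nodes (0.59 ± 0.16, 0.0346). Its ileal levels were 13.7, 17.2, 14.5, 13.9 and 14.9 CPM against 25.0, 27.3, 23.5, 28.1 and 26.5 CPM. The 2 diets did not overlap there, and the call held in all 23 alternatives, whereas the colonic call was lost in 13. Inguinal nodes held more Ccr2 than gut-draining ones, with gut-draining minus inguinal differences of -1.07 ± 0.11 on the sufficient (edgeR adjusted p = 3.29e-10) and -0.73 ± 0.11 on the deficient diet (edgeR adjusted p = 2.91e-06). Inguinal means were 35.9 ± 7.88 and 41.4 ± 5.31 CPM (SD, n = 5). Of 6 receptors tested in that contrast, 2 were lower and 1 higher in gut-draining nodes on the sufficient diet, where 16.9% of all genes passed. On the deficient diet 1 was lower and 1 higher, where 5.71% of all genes passed.

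Ccr1, which binds Ccl7, fell on the deficient diet in duodenal (-0.98 ± 0.31, edgeR adjusted p = 0.0328) and jejunal nodes (-1.21 ± 0.31, 0.0128). Jejunal libraries held 3.25, 3.00, 3.63, 3.86 and 5.56 CPM on the sufficient and 2.00, 1.24, 1.79, 1.49 and 0.751 CPM on the deficient diet, with no overlap. The duodenal call was lost in 11 of 23 alternatives and the jejunal call in 3. The atypical receptors Ackr1 and Ackr2, which take up chemokines without signalling to movement, gave no edgeR adjusted p under 0.209 between diets in any node. Ackr2 was lower in duodenal than in ileal nodes, by -1.39 ± 0.32 on the sufficient (edgeR adjusted p = 0.00338) and -1.32 ± 0.31 on the deficient diet (0.00427), the direction of Ccl2 and Ccl12. It was the only 1 of 6 receptors tested that was lower in that contrast, and 2 were higher, on each diet. Over all genes, 8.07% passed there on the sufficient and 5.60% on the deficient diet. Ccr3, the eotaxin receptor, failed the filter with 245 counts in all libraries together. Of 6 receptors tested, 2 rose and 1 fell in duodenal, 1 rose and 1 fell in jejunal, 2 rose in ileal and 1 rose in colonic nodes. Over all genes tested, 10.1%, 4.55%, 5.70% and 2.22% passed between diets in these nodes, in the same order.

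**Figure D4:**
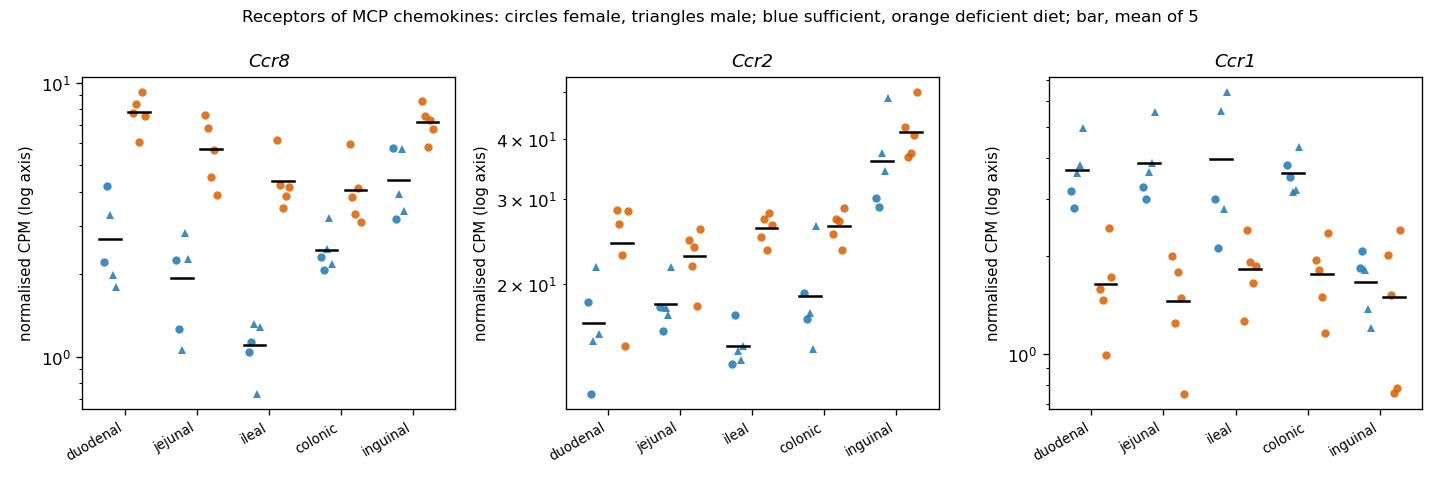
Normalised CPM (log axes) of the receptor genes Ccr8, Ccr2 and Ccr1 in each library by node; blue is the sufficient and orange the deficient diet, circles are females, triangles males, and bars the mean of 5. Mean Ccr8 and Ccr2 sit higher and Ccr1 lower on the deficient diet in the gut-draining nodes, and every inguinal library holds more Ccr2 (28.9 CPM or more) than any gut-draining one.

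Some genes of a monocyte list differed between diets in the gut-draining nodes, while most of the list did not pass. Ly6c2, which marks classical monocytes, rose on the deficient diet in duodenal (1.06 ± 0.21, edgeR adjusted p = 0.000434), jejunal (1.09 ± 0.21, 0.000656), ileal (1.90 ± 0.21, 1.29e-08) and colonic nodes (1.76 ± 0.21, 1.83e-07), in all 23 alternatives. In ileal nodes it went from 39.7, 33.3, 44.5, 40.3 and 39.4 CPM to 113, 133, 123, 172 and 85.3 CPM. Over the whole monocyte list of 10 genes, 3 rose in duodenal, 2 in jejunal, 3 in ileal (with Itgam falling by 0.88) and 2 in colonic nodes. The shares of all genes that passed in these nodes were 10.1%, 4.55%, 5.70% and 2.22%. Median differences of the list were 0.42, 0.20, 0.38 and 0.15 against 0.00 or -0.00 over all genes. The summed level of the list ran from 2529 to 2961 CPM in sufficient and from 2658 to 3402 CPM in deficient ileal nodes, and no defining marker was at 0. The part of monocytes in the rise of Ccl8 and Ccl12 was not tested.

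Cd207, which encodes langerin of Langerhans cells and some dendritic cells, rose on the deficient diet in every node, from 1.65 ± 0.33 in inguinal (edgeR adjusted p = 0.00547) to 3.02 ± 0.41 in colonic nodes (edgeR adjusted p = 3.54e-06). Of 9 tested genes in its list of skin and type 2 dendritic cells, 4 rose in duodenal, 3 in jejunal and 3 in ileal nodes, including the lectin gene Clec10a. In colonic nodes 1 rose and 1, Ccl17, fell, and in inguinal nodes 1 rose. Between diets, 10.1% of all genes passed in duodenal, 4.55% in jejunal, 5.70% in ileal, 2.22% in colonic and 0.838% in inguinal nodes. The summed level overlapped between diets (468 to 604 and 452 to 571 CPM in duodenal nodes). In gut-draining against inguinal nodes of the sufficient diet, where 16.9% of all genes passed, 4 of the 9 were lower. Only 1, Sirpa (0.28 ± 0.06, edgeR adjusted p = 0.000186), was higher. The lower ones included Cd209d (-1.80 ± 0.14, edgeR adjusted p = 3.35e-13) and Cd207 (-2.20 ± 0.25, edgeR adjusted p = 5.25e-09). The summed level of the list was 453 to 515 CPM in sufficient inguinal nodes, within the 407 to 604 CPM of the sufficient gut-draining nodes. Cd207 was at 0 in 1 library. The part of these cells in the level of Ccl8 was not tested.

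Macrophage genes did not share one direction. Of 19 tested, 12 were higher and 5 lower in gut-draining nodes when set against inguinal nodes of the sufficient diet. Over all genes, 16.9% passed in that contrast. The median of the list was 0.73 against -0.01 over all genes, and its summed level was 1300 to 1772 CPM in inguinal and 4218 to 5373 CPM in ileal nodes. Timd4 went the other way, with Ccl8, at -1.40 ± 0.10 (edgeR adjusted p = 3.58e-15). Timd4 (r = 0.88), Cd209d and Ccr2 (0.84 each) were among the 8 genes most like Ccl8 over these same libraries. Their sharing of its direction in this contrast is therefore not separate evidence. Timd4 also rose on the deficient diet in duodenal (0.58 ± 0.14, edgeR adjusted p = 0.00502), jejunal (0.83 ± 0.14, 0.000142) and ileal nodes (0.90 ± 0.14, 3.1e-05), while the mannose receptor gene Mrc1 fell in the same nodes, by 0.78, 0.67 and 0.94. Of the 19 genes, 3 rose and 1 fell in duodenal, 3 rose and 2 fell in jejunal, and 1 rose and 4 fell in ileal nodes. Between diets 10.1%, 4.55% and 5.70% of all genes passed in these nodes, in that order. The part of macrophages in the levels of Ccl8 was not tested.

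Of 15 other CC chemokines listed, 12 could be tested between diets, and 1 rose in duodenal, 1 rose and 1 fell in ileal and 2 fell in colonic nodes. Among all genes, 10.1% passed in duodenal, 5.70% in ileal and 2.22% in colonic nodes. Ccl22, which draws regulatory and type 2 T cells, rose in duodenal nodes (0.65 ± 0.16, edgeR adjusted p = 0.00471) and fell in ileal (-0.74 ± 0.16, 0.00184) and colonic nodes (-0.81 ± 0.16, 0.00222). Its partner at the same receptor, Ccl17, fell in colonic nodes (-1.80 ± 0.36, edgeR adjusted p = 0.00222), and the macrophage chemokine Ccl9 rose in ileal nodes (1.05 ± 0.32, edgeR adjusted p = 0.0393). The homeostatic chemokines of lymph node stroma, Ccl19 and Ccl21a, differed by 0.30 or less on the log2 scale in any node. In jejunal and inguinal nodes the smallest edgeR adjusted p of the list were 0.19 (Ccl17) and 0.444 (Ccl21a). The median difference of the list was 0.22 in duodenal, -0.17 in ileal and -0.22 in colonic nodes, against 0.36, 0.79 and 0.31 for the 5 members.

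Of 17 tested cytokines and factors known to induce MCP chemokines, 2 rose and 1 fell in duodenal nodes (10.1% of all genes passed). In jejunal nodes 1 rose and 1 fell (4.55%), in ileal nodes 2 rose (5.70%) and in colonic nodes 1 rose (2.22%). Il1b, the inflammatory cytokine interleukin 1 beta, fell in duodenal (-1.92 ± 0.36, edgeR adjusted p = 0.000291) and jejunal nodes (-1.48 ± 0.36, 0.00882), where Ccl12 rose. Rela, the NF-kB subunit, rose there by 0.53 ± 0.11 (edgeR adjusted p = 0.000975) and 0.44 ± 0.11 (0.011). Atf3, a stress-induced factor, rose in ileal nodes (1.18 ± 0.29, edgeR adjusted p = 0.0084). The list's median was 0.11 in duodenal and jejunal, 0.03 in ileal and 0.04 in colonic nodes. Il6 was at 0 in 19 libraries and Il13 in 31.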

How the data were processed

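Poly(A) RNA of mouse lymph nodes was sequenced in 50 libraries. The values are estimated counts per gene, deposited by the authors in 1 table, and 379 of its 56600 entries had no gene name. Kallisto, edgeR and limma are listed in the submitters' processing notes together with the builds mm10 and GRCm39. Which step used which of these, and in which version, is not stated in the sources used. Of nonzero values 0.122% were whole to within 1e-06. Library totals of 5335369 to 8904722 left low members with few counts per library, which limits their precision.

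Counts were rounded, filtered with filterByExpr (18387 genes kept), scaled with TMM and fitted with the quasi-likelihood test of edgeR (version 4.0.16, R 4.3.3), with 1 mean per diet and node and a sex term that rests on the sufficient libraries. P-values were adjusted by Benjamini-Hochberg over all genes, at a threshold of 0.05, and standard errors come from the fold change and the F statistic. Small intestinal and gut-draining means weight nodes equally. Sequences and positions are from RefSeq and GENCODE M21, both GRCm38. The table itself has no coordinates. Words of 31 bases were compared over all transcripts of that annotation.

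The members, the marker lists and the tests were chosen with earlier results of these data known. All receptors, and up to 4 genes per list and comparison with the smallest adjusted p, could be named, with the 8 or 5 genes most like a member by the correlation of log2 CPM (prior count 2). Alternatives were RLE factors, no filter, a CPM filter (1 or more in 5 or more libraries), limma-voom (limma 3.58.1), DESeq2 1.42.0, no sex term, females only, only the groups compared, a replicate block and the omission of all libraries sharing 1 number within a diet. Leaving out the low-Gm19220 libraries, a term for them, leaving out the 2 libraries with high pancreas transcripts and leaving out deficient ileal library 4 were added after seeing the data. Some genes of the lists are not reported here. The fit was tested on simulated counts. Figures used matplotlib 3.10.9.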

Additional observations from a re-analysis of the deposited data

Results flagged for a closer look

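Within groups of 5 libraries, the gap between the most extreme library and the nearest of the others, over the range of the group, exceeded Dixon's 95% critical value of 0.71 in 5 of 50 member and group combinations, where chance gives about 1 in 20. Ccl8 in deficient duodenal library 4 was 5.83 CPM, with the others at 1.72 to 2.84 CPM, and this library is also 1 of the 2 with high pancreas transcripts (15.56% of counts). Ccl2 in deficient ileal library 4 was 34.8 CPM, with the others at 9.71 to 10.9 CPM. In that library Ccl12 (14.3 CPM) and the interferon-induced genes Cxcl10 (180 CPM, others 18.1 to 36.3), Rsad2 (125 CPM, others 10.6 to 28.0) and Isg15 (183 CPM, others 22.2 to 47.8), named after their values were seen, were also the highest of the group. Ccl11 stood out in deficient duodenal library 5 at 17.6 CPM (others 12.2 to 13.1), deficient jejunal library 3 at 21.3 CPM (others 11.5 to 13.3) and deficient inguinal library 3 at 13.9 CPM (others 7.80 to 9.23).

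The diet effect on Ccl2 differed between gut-draining and inguinal nodes by 1.73 on the log2 scale, by the edgeR interaction term given above.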

How the results depend on the processing

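Of the tested results of the 5 genes, 42 were refitted in the alternatives, and 15 of these had passed the threshold. They were the diet differences and the gut-draining minus inguinal interaction of all 5 genes. For Ccl8, Ccl2 and Ccl12 the small intestinal against colonic and duodenal against ileal contrasts were added. Other tests were not refitted, though some had passed, such as Ccl8 in duodenal against colonic nodes of the sufficient diet (edgeR adjusted p = 0.000138). Over 23 alternatives, 906 fits were made; 829 left the result on its side of the threshold, 60 ended a call, 17 created one and 0 turned a called direction. Calls that held in every alternative were 2, Ccl2 in duodenal against ileal nodes of the deficient diet and Ccl8 in small intestinal against colonic nodes of the sufficient diet. All values are log2 differences, and the causes of the changes were not tested. Members at a few counts per library are limited by depth.

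Calls were lost as follows. Fitting only the groups compared gave 2.33 (Ccl8) and 1.92 (Ccl12) for diet in duodenal, 1.94 (Ccl12) in jejunal, 2.52 (Ccl8) and 1.90 (Ccl12) in ileal, 1.33 (Ccl12) in colonic and -1.22 (Ccl2) in inguinal nodes, and -1.53 and -1.31 for Ccl12 in duodenal against ileal nodes (sufficient, deficient). Females only gave 1.93, 1.95, 1.90 and 1.33 for Ccl12 along the gut from duodenal to colonic nodes, -1.21 for inguinal Ccl2, -1.51 for Ccl12 in small intestinal against colonic nodes, -1.35 (Ccl2) and -1.36 (Ccl12) between sufficient duodenal and ileal nodes, and 1.68 for the Ccl2 interaction. With limma-voom Ccl12 was 1.91 in jejunal and 1.35 in colonic nodes and -1.24 and -1.06 between duodenal and ileal nodes (sufficient, deficient), and inguinal Ccl2 was -1.27. Without a filter inguinal Ccl2 was -1.25, and without the sex term colonic Ccl12 was 1.00. Without the low-Gm19220 libraries the values were 1.51 (colonic Ccl12), -1.05 (inguinal Ccl2), -1.29 (Ccl8, small intestinal against colonic, deficient), -1.43 (Ccl12, duodenal against ileal, deficient) and 1.66 (Ccl2 interaction), and with a term for them 1.41 (colonic Ccl12) and -0.98 (inguinal Ccl2). Without the high-pancreas libraries they were 1.48 (duodenal Ccl8) and -1.40 (Ccl12, duodenal against ileal, sufficient).

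Omitting the libraries of 1 number and diet at a time gave 1.52 to 2.21 for duodenal and 2.17 to 2.77 for ileal Ccl8, 2.10 to 2.57, 1.65 to 2.30, 1.56 to 2.47 and 1.16 to 1.63 for Ccl12 from duodenal to colonic nodes in the same order, and -1.48 to -1.01 for inguinal Ccl2. For small intestinal against colonic nodes, deficient Ccl8 ranged from -1.34 to -1.12. For duodenal against ileal nodes, sufficient Ccl2 ranged from -1.27 to -1.03, and Ccl12 from -1.72 to -1.08 (sufficient) and from -1.63 to -0.81 (deficient).

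Replicate numbers were shared by the groups, but they were not taken to pair samples: 34 of 50 same-numbered library pairs on the sufficient and 25 of 50 on the deficient diet had a correlation of deviations over 0.1. The median was 0.16 on the sufficient and 0.10 on the deficient diet, against -0.04 and -0.03 for pairs with different numbers. As a hint from the data, 19 of 25 libraries on each diet correlated best with their own number. On the sufficient diet the number also carries sex. Same-numbered libraries were thus more alike than others, and the node comparisons of the main fit did not use this. With the replicate block, 4 results passed that otherwise missed the threshold. The inguinal diet difference of Ccl7 was -1.38 (edgeR adjusted p = 0.0443). Ccl12 in small intestinal against colonic nodes of the deficient diet was -0.91 (0.0297). The gut minus inguinal diet interactions were 1.33 for Ccl8 (0.0452) and 1.30 for Ccl12 (0.0396). For diet differences within a node, the block matched libraries of the same number across diets. No litter held both diets, so the matched libraries came from different mice, and nothing is read from the Ccl7 pass. The block ended no call among the 15, and the same limit applies to the diet differences among them.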
